A study of Mus musculus with 27 samples.

Results

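Alveolar type I (AT1) cells were followed through the transcripts of 9 genes that are widely used as their markers: Ager, Aqp5, Hopx, Pdpn, Rtkn2, Cav1, Clic5, Akap5 and Emp2. Each was taken by its symbol from a table of 16024 genes, all 9 were found, and none was listed at 0 in any library. The table gives FPKM, sequenced fragments scaled by transcript length and library size, so that levels can be compared between genes per unit of length. The 27 libraries came from lungs of C57BL/6 mice, either without tumour (WT) or taken 20 to 25 days after HKP1 lung cancer cells had been injected into the tail vein. Lungs were perfused and dissociated, and cells were sorted on surface proteins or left unsorted. Macrophages were CD11c+CD11b+ in tumour lung (n = 3) and CD11c+CD11b- in WT lung (n = 2), so that gate differs between the arms. Monocytes were CD11b+Ly6C+ (n = 2 and n = 2) and neutrophils CD11b+Ly6G+ (n = 3 and n = 3). Epithelial cells were Epcam+CD11b-CD11c- (n = 3 and n = 3), a gate that in tumour lung can hold cancer cells beside host epithelium, and total lung cells were unsorted (n = 3 and n = 3). The labels do not say which libraries came from separate mice, so p-values measure the spread between these libraries only.

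AT1 cells are the thin, wide squamous cells that cover most of the alveolar surface and across which gas passes into the capillaries beneath. They arise from, and can be renewed by, cuboidal alveolar type II (AT2) cells, which make surfactant. Their markers serve varied purposes. Ager encodes the receptor for advanced glycation end products on the basal membrane, Aqp5 an apical water channel, Emp2 a tetraspan membrane protein and Pdpn the mucin-like surface protein podoplanin. Cav1 encodes the coat protein of caveolae and Clic5 an intracellular chloride channel family member bound to the cortical actin skeleton. Akap5 encodes a scaffold that anchors protein kinase A, and Hopx a homeodomain protein that does not bind DNA. Several are not private to the cell type: capillary endothelium can also express Cav1 and Clic5, and lymphatic endothelium, fibroblasts and activated macrophages can carry podoplanin.

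Replicate libraries of a group correlated at r = 0.964 to 0.996 across genes, no pair was identical, and between 8560 and 11420 genes reached 1 FPKM per library. The relative depth of the libraries, read roughly from the spacing of their lowest values and set to 1 for tumour macrophage replicate 1, ran from 0.829 to 1.57. The Epcam gate matched its label, with Epcam at 87.1 ± 8.70 FPKM in WT and 91.1 ± 6.24 FPKM in tumour epithelium (SD, n = 3 each) against 13 ± 2.79 and 10.1 ± 0.877 FPKM in total lung. The AT2 genes Sftpc and Sftpb were listed at 0 in all 6 epithelial libraries although Sftpc reached 1780.5 FPKM in a WT monocyte library, so AT2 genes were not compared in epithelium.

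Ager, Aqp5 and Emp2, the membrane proteins of the gas exchange surface, were by level the leading transcripts of the set in epithelium. Ager stood at 1183.0, 1047.3 and 1444.8 FPKM in the WT epithelial libraries and at 687.9, 957.5 and 429.4 FPKM in the tumour ones. In total lung it was 155.1, 191.3 and 174.6 FPKM in WT and 74.9, 41.6 and 40.9 FPKM in tumour libraries. The 4 groups did not overlap, and they kept this order: WT epithelium, tumour epithelium, WT total lung, tumour total lung. How many of all genes separate the 4 groups was not counted. Tumour libraries lay wholly under WT ones for 21% of genes tested in epithelium and 27.6% in total lung. Aqp5 followed the same order without overlap, with 281.1, 254.5 and 304.2 FPKM in WT epithelium and 108.7, 191.2 and 60.5 FPKM in tumour epithelium. Its total lung values were 34.3, 48.5 and 33.3 FPKM in WT and 13.1, 6.23 and 6.26 FPKM in tumour libraries. Emp2 gave 215.3, 186.4 and 231.8 FPKM in WT epithelium, 134.1, 144.5 and 89.0 FPKM in tumour epithelium, 38.3, 45.2 and 71.7 FPKM in WT total lung and 15.9, 18.3 and 21 FPKM in tumour total lung. Tumour epithelial replicate 11 was the lowest epithelial library for all 3 genes.

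The remaining genes were less abundant in epithelium. Clic5, the actin-bound chloride channel relative, measured 35.4, 30.1 and 34.0 FPKM in WT epithelium and 14.2, 15.8 and 10.2 FPKM in tumour epithelium, with no overlap. In total lung Clic5 was 11.7, 13.5 and 26.1 FPKM in WT and 3.45, 4.11 and 4.31 FPKM in tumour libraries. Cav1, the caveolar coat gene, measured 87.2, 44.3 and 86.1 FPKM in WT and 33.4, 18.9 and 22.6 FPKM in tumour epithelium. In unsorted lung it measured 90.6, 100.6 and 159.3 FPKM in WT and 38.1, 37.2 and 29.5 FPKM in tumour libraries. Hopx measured 75.7, 86.8 and 65.1 FPKM in WT and 25.7, 34.5 and 22.8 FPKM in tumour epithelium. Its total lung values, 45.9, 34.2 and 80.0 FPKM in WT and 31.1, 32.1 and 38.9 FPKM in tumour libraries, overlapped. Reads of Hopx cannot be told apart from those of its antisense neighbour Hopxos, nor those of Rtkn2 from antisense Gm16212, because their exons overlap and no strand is stated for the counting.

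The signalling genes were the lowest of the set in epithelium together with Pdpn. Akap5 lay at 9.04, 6.96 and 7 FPKM in WT and 6.74, 4.27 and 6.23 FPKM in tumour epithelium. Rtkn2 lay at 3.81, 2.93 and 3.03 FPKM in WT and 4.13, 2.63 and 4.44 FPKM in tumour epithelium. Both were lower in total lung: Akap5 at 2.65, 2.08 and 6.31 FPKM and Rtkn2 at 1.16, 0.886 and 2.64 FPKM in WT, with WT total lung replicate 13 the highest for each. In tumour total lung Akap5 was 1.32, 1.03 and 1.74 FPKM and Rtkn2 was 0.541, 0.812 and 0.893 FPKM. Pdpn did not mark the epithelial sort, with 5.68, 5.05 and 4.26 FPKM in WT epithelium against 6.67, 7.98 and 5.37 FPKM in WT total lung. In tumour lung it measured 9.91, 4.48 and 6.02 FPKM in epithelium and 39.6, 9.72 and 22.1 FPKM in total lung.

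**Figure D1:**
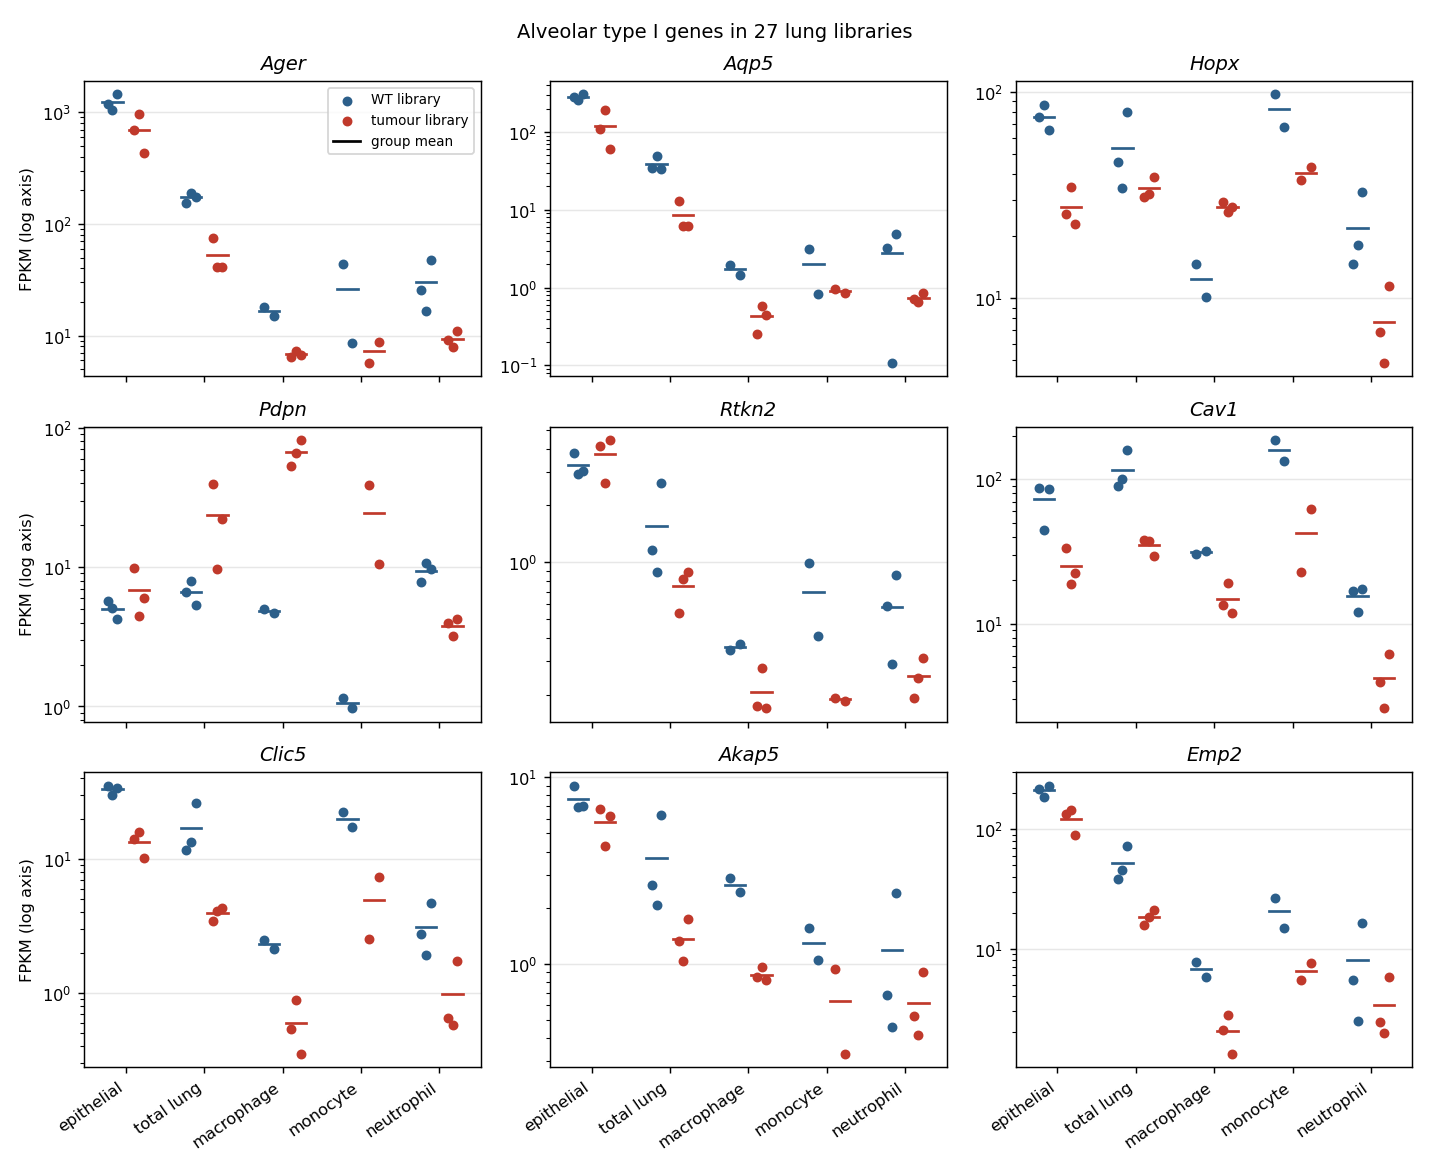
FPKM on a log axis of the 9 AT1 genes in each of the 27 libraries, with cell preparations along the x axis, WT libraries in blue, tumour libraries in red and group means as short lines. Ager, Aqp5 and Emp2 run down from epithelium (Ager mean 1225.0 FPKM in WT) through total lung to the myeloid sorts, while Pdpn peaks in tumour macrophages at a mean of 66.6 FPKM.

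Set against WT epithelium, the myeloid sorts held little Ager and Aqp5, while for Hopx, Cav1 and Pdpn 1 or more of the 6 myeloid groups had a higher mean. The highest myeloid mean of Ager, 30.0 ± 15.7 FPKM in WT neutrophils, was 2.45% of its WT epithelial mean, and that of Aqp5, 2.76 ± 2.45 FPKM in the same libraries, was 0.987%. For Emp2 it was 20.6 ± 8.22 FPKM in WT monocytes, or 9.77%. Intermediate shares were found for Rtkn2 (21.5%, WT monocytes), Akap5 (34.6%, WT macrophages) and Clic5 (59.9%, WT monocytes). Hopx in WT monocytes, at 82.4 ± 21.1 FPKM, came to 108.6% of WT epithelium, and their ranges overlapped. Cav1 in WT monocytes, at 160.2 ± 38.4 FPKM, came to 220.9%, and Pdpn in tumour macrophages, at 66.6 ± 14.4 FPKM, to 1332.4%. In the other 5 myeloid groups the means of Hopx ran from 7.67 to 40.5 FPKM and those of Cav1 from 4.23 to 42.5 FPKM, under their WT epithelial means of 75.9 and 72.5 FPKM. Pdpn ran there from 1.06 FPKM in WT monocytes to 24.6 FPKM in tumour monocytes, against 5.0 FPKM in WT epithelium. WT monocytes also had the highest mean sum of 12 vascular endothelial markers among the 10 groups, 954.8 FPKM. The same held for T and NK markers (681.0 FPKM) and lymphatic endothelial markers (68.7 FPKM). The part of these in the Hopx and Cav1 of WT monocytes was not tested. The order of groups therefore split the set. Ager, Aqp5, Emp2, Clic5 and Akap5 had their highest mean in WT epithelium and Rtkn2 in tumour epithelium, whereas Hopx and Cav1 were highest in WT monocytes and Pdpn in tumour macrophages. In the lower part of the order most neighbours overlapped: for Ager the means of WT neutrophils, WT monocytes and WT macrophages (30.0, 26.0 and 16.5 FPKM) did, as did those of tumour neutrophils, monocytes and macrophages (9.34, 7.29 and 6.80 FPKM).

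Promoter sequence was read for the pair whose levels ran most closely together, Ager and Aqp5, and for Pdpn, which went its own way. RefSeq windows (GRCm38.p6, 250 bases before to 50 after a start, written 5′ to 3′ on the strand of the gene) were matched for 8 of the 9 genes, in 10 windows. Capitals mark the GC box, GGGCGG or its complement CCGCCC. The Ager window is chr17:34597600-34597899 on the plus strand, the Aqp5 window chr15:99590778-99591077 on the plus strand and the Pdpn window chr4:143299515-143299814 on the minus strand.
Ager: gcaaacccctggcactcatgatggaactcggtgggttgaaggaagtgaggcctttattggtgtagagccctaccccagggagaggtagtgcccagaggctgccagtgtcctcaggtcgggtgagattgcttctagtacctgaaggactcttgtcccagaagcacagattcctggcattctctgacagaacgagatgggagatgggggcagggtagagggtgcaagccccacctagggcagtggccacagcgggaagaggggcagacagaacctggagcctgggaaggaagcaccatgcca
Aqp5: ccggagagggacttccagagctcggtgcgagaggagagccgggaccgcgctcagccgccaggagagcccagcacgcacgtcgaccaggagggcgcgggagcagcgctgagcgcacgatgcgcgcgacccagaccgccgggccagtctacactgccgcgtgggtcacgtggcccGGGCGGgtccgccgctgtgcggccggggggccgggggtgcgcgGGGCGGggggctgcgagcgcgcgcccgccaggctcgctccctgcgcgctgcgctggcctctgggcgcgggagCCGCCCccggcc
Pdpn: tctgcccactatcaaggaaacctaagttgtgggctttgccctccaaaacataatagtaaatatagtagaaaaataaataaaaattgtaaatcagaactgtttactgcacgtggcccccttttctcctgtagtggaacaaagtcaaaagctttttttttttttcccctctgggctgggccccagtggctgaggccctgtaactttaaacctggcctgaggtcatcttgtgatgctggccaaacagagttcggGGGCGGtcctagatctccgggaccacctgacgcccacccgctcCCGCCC
Base composition differed between the windows, also between those of Ager and Aqp5. The Aqp5 window was 79.7% G and C with 46 CG pairs, the Ager window 58.3% with 4 pairs and the Pdpn window 48.7% with 7 pairs, where the median of 32851 mouse promoters was 52.7%. In the GENCODE M21 annotation Aqp5 starts at 15:99590782, so nearly all of its window lies inside the annotated gene. The Ager and Pdpn windows lie mostly before the annotated starts of their genes, so unlike parts are compared. The GC box was found on either strand in 6 of the 10 windows (Akap5, Aqp5, Cav1, Clic5, Emp2 and Pdpn) and in 35.7% of all promoters. The NKX2-1 core CACTTG (complement CAAGTG) was found in 1 window, of Hopx, and in 13.6% of all, and the TEAD core GGAATG (complement CATTCC) in 0 of 10 and 14.7% of all. No motif contains another. A match is a run of letters only, and a missing match says nothing of the factor.

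In GENCODE M21 on GRCm38 all 9 are protein-coding. Ager lies at 17:34597862-34600936 and Clic5 at 17:44188584-44280172, both on the plus strand of chromosome 17. Aqp5 is at 15:99590782-99594829, Cav1 at 6:17306335-17341452, Akap5 at 12:76324891-76334153 and Rtkn2 at 10:67979570-68059740, all on the plus strand. Hopx is at 5:77086988-77115121, Pdpn at 4:143267431-143299564 and Emp2 at 16:10281749-10313968, on the minus strand.

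In WT lung 6 of the 9 genes were higher in the Epcam sort than in unsorted cells, and none was lower. In limma tests on log2(FPKM + 1), adjusted over 11895 genes, 31.9% of all genes were called higher in WT epithelium and 31.8% lower. Ager differed by a log2 of 2.80 (SE 0.14, adjusted p = 1.49e-05) and Aqp5 by 2.84 (SE 0.16, adjusted p = 1.73e-05), about 6.98 and 7.17 times on this scale, which understates the change of low genes. Emp2 followed with a log2 difference of 2.05 (adjusted p = 0.000162), Clic5 with 1.0 (adjusted p = 0.0134), Akap5 with 0.99 (adjusted p = 0.0273) and Rtkn2 with 0.79 (adjusted p = 0.0331). Hopx (log2 0.58, adjusted p = 0.11), Pdpn (log2 -0.35, adjusted p = 0.122) and Cav1 (log2 -0.70, adjusted p = 0.0784) did not pass. As a check of the label, the markers concentrated by the epithelial sort were thus Ager, Aqp5, Emp2, Clic5, Akap5 and Rtkn2, while Hopx, Cav1 and Pdpn were not shown to be concentrated by it. Of the other AT1 genes listed, 33 of 38 tested were higher in the epithelial sort and 1 lower, led by the lung lineage factor Nkx2-1 (log2 3.14), the tight junction gene Cldn18 (360.0 against 46.5 FPKM) and Gramd2 (50.8 against 6.09 FPKM). The exception, Timp3, an inhibitor of metalloproteases, was 34.2 in epithelium against 67.5 FPKM in total lung. Without WT total lung replicate 12 the members called fell from 6 to 3, as Clic5, Akap5 and Rtkn2 missed the threshold (adjusted p 0.0901 for Akap5 and 0.113 for Rtkn2). Rtkn2 lost its call under 5 of 12 alternatives and Akap5 under 4 of 13, among them leaving out WT epithelial replicate 8 or WT total lung replicate 11 (Rtkn2 adjusted p 0.0986 and 0.109).

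In tumour lung the same 6 genes were higher in epithelium than in total lung and Pdpn was lower. Of 11877 genes, 29.5% were called higher and 23.4% lower. Ager differed by a log2 of 3.68 (SE 0.35, adjusted p = 0.000245), Aqp5 by 3.59 (SE 0.44, adjusted p = 0.000735) and Emp2 by 2.65 (SE 0.21, adjusted p = 0.00011). Clic5 (log2 1.52), Akap5 (log2 1.51) and Rtkn2 (log2 1.42) passed with adjusted p of 0.000654, 0.00111 and 0.00148. Pdpn had a log2 difference of -1.53 (SE 0.49, adjusted p = 0.0338). That call was lost under 5 of 13 alternatives, among them leaving out tumour total lung replicate 12, 14 or tumour epithelial replicate 10, 11 (adjusted p 0.089, 0.101, 0.0747 and 0.0690). Hopx (log2 -0.30, adjusted p = 0.184) and Cav1 (log2 -0.50, adjusted p = 0.0926) did not pass. Of the other AT1 genes, 35 of 39 were higher and 0 lower, with Cldn18, Nkx2-1 and the sodium channel subunit Scnn1a showing the largest log2 differences (4.04, 3.85 and 3.59).

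**Figure D2:**
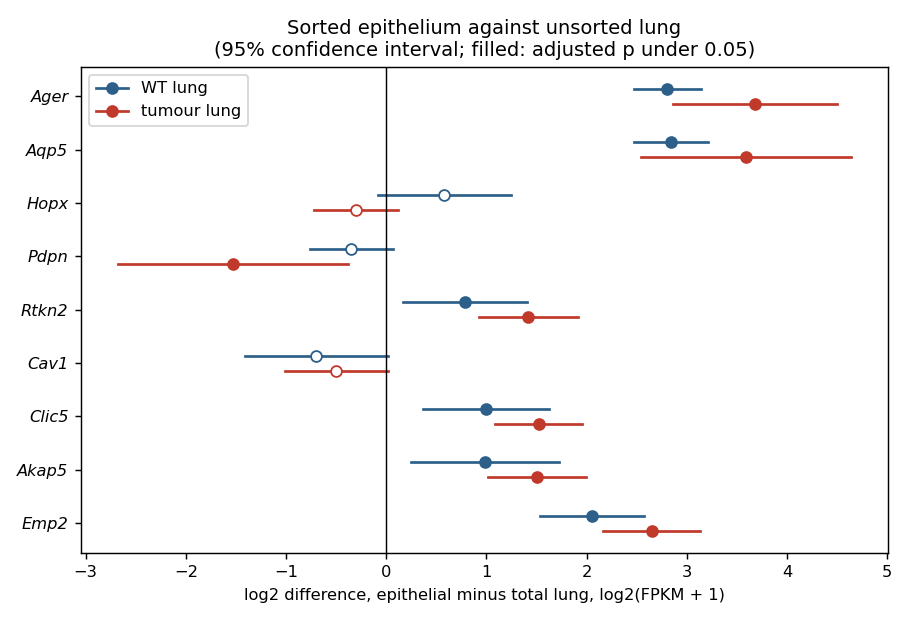
Log2 difference between sorted epithelium and unsorted lung for each AT1 gene in WT (blue) and tumour (red) lung, with bars for the 95% confidence interval and filled points for an adjusted p under 0.05. Ager and Aqp5 lie furthest right in both lungs (2.80 and 2.84 in WT), and Hopx, Pdpn and Cav1 lie at or left of 0.58.

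Tumour epithelium held less Aqp5, Hopx, Cav1, Clic5 and Emp2 than WT epithelium, whereas Rtkn2, Akap5 and Pdpn did not pass the test. This made 5 of 9 members lower and 0 higher, where 8.89% of 11823 genes tested were lower and 14.9% higher. The median log2 difference of the members was -0.89, and that of all genes 0.01. In such bulk libraries fewer AT1 cells and less RNA per cell cannot be told apart. Hopx showed a log2 difference of -1.44 (SE 0.18, adjusted p = 0.00563), from 75.9 ± 10.8 to 27.6 ± 6.10 FPKM. Clic5 differed by -1.26 (SE 0.18, adjusted p = 0.00741), Cav1 by -1.48 (SE 0.31, adjusted p = 0.0207), Aqp5 by -1.36 (SE 0.37, adjusted p = 0.0399) and Emp2 by -0.81 (SE 0.20, adjusted p = 0.0315). Their WT and tumour libraries did not overlap, which held in the lower direction for 21% of all genes tested. Ager, from 1225.0 ± 202.1 to 691.6 ± 264.1 FPKM, also did not overlap but missed the threshold (log2 -0.89, SE 0.30, adjusted p = 0.0684). It passed under 1 of 14 alternatives, without tumour replicate 10 (log2 -1.16, adjusted p = 0.014). That library had the highest tumour Ager (957.5 FPKM), so leaving it out favours a fall. Of the 5 genes called, Emp2 lost its call under 8 of 14 alternatives, Aqp5 under 7, Cav1 under 4, and Hopx and Clic5 under 1 each. A block for replicate number, which the main tests leave out, removed all 5 calls at once. Akap5 (log2 -0.37, adjusted p = 0.211), Pdpn (log2 0.33, adjusted p = 0.391) and Rtkn2 (log2 0.14, adjusted p = 0.66) did not pass, with 95% intervals of -0.85 to 0.11, -0.31 to 0.96 and -0.38 to 0.65.

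The level of Aqp5 relative to Ager was lower in tumour epithelium. Aqp5 was 21.1% to 24.3% of the Ager level in the WT epithelial libraries and 14.1% to 20.0% in the tumour ones, without overlap. Emp2 was 16.0% to 18.2% of Ager in WT and 15.1% to 20.7% in tumour epithelium, so that the tumour values ran past the WT range on both sides. Rtkn2 was 0.21% to 0.322% of Ager in WT and 0.275% to 1.03% in tumour epithelium, which overlapped. The ratios of Hopx, Cav1, Clic5, Akap5 and Pdpn to Ager overlapped between the arms as well. Their means were lower in tumour epithelium for Hopx, Cav1 and Clic5 and higher for Akap5 and Pdpn. Clic5 overlapped narrowly, at 2.36% to 2.99% of Ager in WT and 1.66% to 2.37% in tumour epithelium. No test was made of these ratios, and how many of all genes would separate the arms by such a ratio was not counted.

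Other cell markers moved with the epithelial comparison. Vascular endothelial markers were lower in tumour epithelium for 12 of 13 genes tested and higher for 0. Their summed level, leaving out Car4, which was at 293.2 and 357.1 FPKM in the WT macrophage libraries, was 209.6 to 440.3 FPKM in WT and 13.6 to 66.7 FPKM in tumour epithelium, with none of the 12 genes at 0. WT epithelial replicate 9 had the lowest WT sum of these markers and the lowest WT Cav1 (44.3 FPKM). It was also the lowest WT library for Ager, Aqp5, Rtkn2, Clic5, Akap5 and Emp2, but the highest for Hopx (86.8 FPKM). In tumour epithelium replicate 11 had the lowest sum, whereas replicate 10 had the lowest Cav1 (18.9 FPKM). Krt8 was 236.6 ± 26.2 FPKM in WT and 718.2 ± 220.6 FPKM in tumour epithelium, and Msln, a gene of mesothelium and many carcinomas, 1.42 ± 1.08 and 164.0 ± 107.2 FPKM. Leukocyte markers summed to 78.1 to 142.1 FPKM in WT and 79.6 to 164.1 FPKM in tumour epithelium, with 0 of 4 genes called. Macrophage markers were higher for 3 of 5 genes, with sums of 20.2 to 36.4 FPKM in WT and 43.5 to 184.9 FPKM in tumour epithelium. B cell markers were lower for 4 of 4, with sums of 77.8 to 135.2 FPKM in WT and 27.8 to 40.2 FPKM in tumour epithelium, and fibroblast markers for 2 of 7. Relative depth was 0.829 to 0.966 in WT and 1.26 to 1.57 in tumour libraries. The part of these in the AT1 differences was not tested.

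Of the 39 other AT1 genes tested in epithelium, 6 were higher in tumour and 7 lower. The share higher, 15.4%, was near the 14.9% of all genes, and the share lower was 17.9% against 8.89%. Those higher included Krt19 (582.2 ± 276.0 against 60.5 ± 16.9 FPKM, log2 3.16, limma adjusted p = 0.00461), Krt7 (log2 1.32) and Tspan8 (log2 1.36), simple-epithelial keratins and a tetraspanin. Those lower included Mal2 (log2 -1.01), Radil (log2 -0.98) and Timp3 (log2 -0.92), with adjusted p of 0.0342, 0.0469 and 0.0358. With each epithelial library left out in turn, 2 to 6 members were called. The count was 3 without tumour replicate 9 or WT replicate 9, and 2 without tumour replicate 11, WT replicate 8 or WT replicate 10.

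In unsorted lung Ager, Aqp5, Cav1, Clic5 and Emp2 fell with tumour and Pdpn rose. Here 5 of 9 members were called lower and 1 higher, where 20.4% of 11747 genes were lower and 22.1% higher, and the members' median log2 difference was -1.40 against -0.01 for all genes. Aqp5 had a log2 difference of -2.11 (SE 0.28, adjusted p = 0.00116), from 38.7 ± 8.52 to 8.53 ± 3.96 FPKM. Clic5 (log2 -1.79, adjusted p = 0.00197), Ager (log2 -1.76, SE 0.23, adjusted p = 0.00116), Cav1 (log2 -1.68, adjusted p = 0.00107) and Emp2 (log2 -1.40, adjusted p = 0.00265) were lower too. The WT and tumour libraries of these 5 did not overlap, which held in the lower direction for 27.6% of all genes. Akap5 (log2 -0.89, adjusted p = 0.0538), Hopx (log2 -0.55, adjusted p = 0.147) and Rtkn2 (log2 -0.50, adjusted p = 0.156), which reached 1 FPKM in WT libraries alone, did not pass. Pdpn rose from 6.67 ± 1.31 to 23.8 ± 15.0 FPKM (log2 1.51, SE 0.43, adjusted p = 0.0252), with all 3 tumour libraries above the WT ones, as for 28.2% of all genes. That call was lost without tumour replicate 14, WT replicate 11 or WT replicate 13 (adjusted p 0.0728, 0.0666 and 0.0697).

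Among the other AT1 genes 19 of 38 tested were lower in tumour total lung and 7 higher, against 20.4% lower and 22.1% higher of all genes; the share higher was 18.4%. Timp3 (67.5 ± 27.8 to 8.21 ± 2.67 FPKM), Cldn18 (46.5 ± 6.09 to 11.4 ± 4.69 FPKM) and Nkx2-1 (22.0 ± 4.22 to 5.02 ± 2.51 FPKM) had the largest falls, with log2 differences of -2.86, -2.0 and -1.99. Krt19, Krt7 and Tspan8 led the rises again (log2 3.20, 1.64 and 1.51). Endothelial markers were lower for 12 of 13 genes, their sum without Car4 running from 520.6 to 1078.7 FPKM in WT and from 92.6 to 221.8 FPKM in tumour libraries. The 5 macrophage markers tested were all higher, with sums of 80.4 to 108.0 FPKM in WT and 316.3 to 741.8 FPKM in tumour total lung, and neutrophil markers were higher for 5 of 6. Fibroblast markers were lower for 7 of 8 genes, with sums of 445.1 to 1273.5 FPKM in WT and 94.4 to 270.2 FPKM in tumour libraries. AT2 markers were lower for 8 of 9 and B cell markers for 4 of 4. The 1 AT2 gene called higher, Sftpc, was listed at 0 in all 3 WT libraries and at 577.8 to 3961.5 FPKM in tumour. As with the zeros in epithelium, that call is not read as a rise. Without Sftpc the AT2 sums were 3264.7 to 5368.5 FPKM in WT and 207.4 to 1007.0 FPKM in tumour total lung. WT total lung replicate 13 was the highest WT library for the endothelial sum and for Hopx, Rtkn2, Cav1, Clic5, Akap5 and Emp2. The part of these markers was not tested.

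Whether the tumour effect differed between epithelium and total lung was tested by an interaction term in limma, which called 0 of 9 members, where 10.7% of 12419 genes were called. At an unadjusted p under 0.05 there was 1 member, Hopx, against 28% of genes (3482). The differences were 0.88 for Ager (95% interval -0.01 to 1.76, adjusted p = 0.184), -0.88 for Hopx (-1.69 to -0.08, adjusted p = 0.141) and -1.18 for Pdpn (-2.41 to 0.05, adjusted p = 0.195). For the other 6 they lay between 0.20 and 0.75. Without tumour total lung replicate 13 Pdpn passed (adjusted p = 0.033), and without WT total lung replicate 13 Hopx passed (adjusted p = 0.0263). The first had the lowest Pdpn of tumour total lung (9.72 FPKM) and the second the highest Hopx of WT total lung (80.0 FPKM). Leaving either out favours the call.

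**Figure D3:**
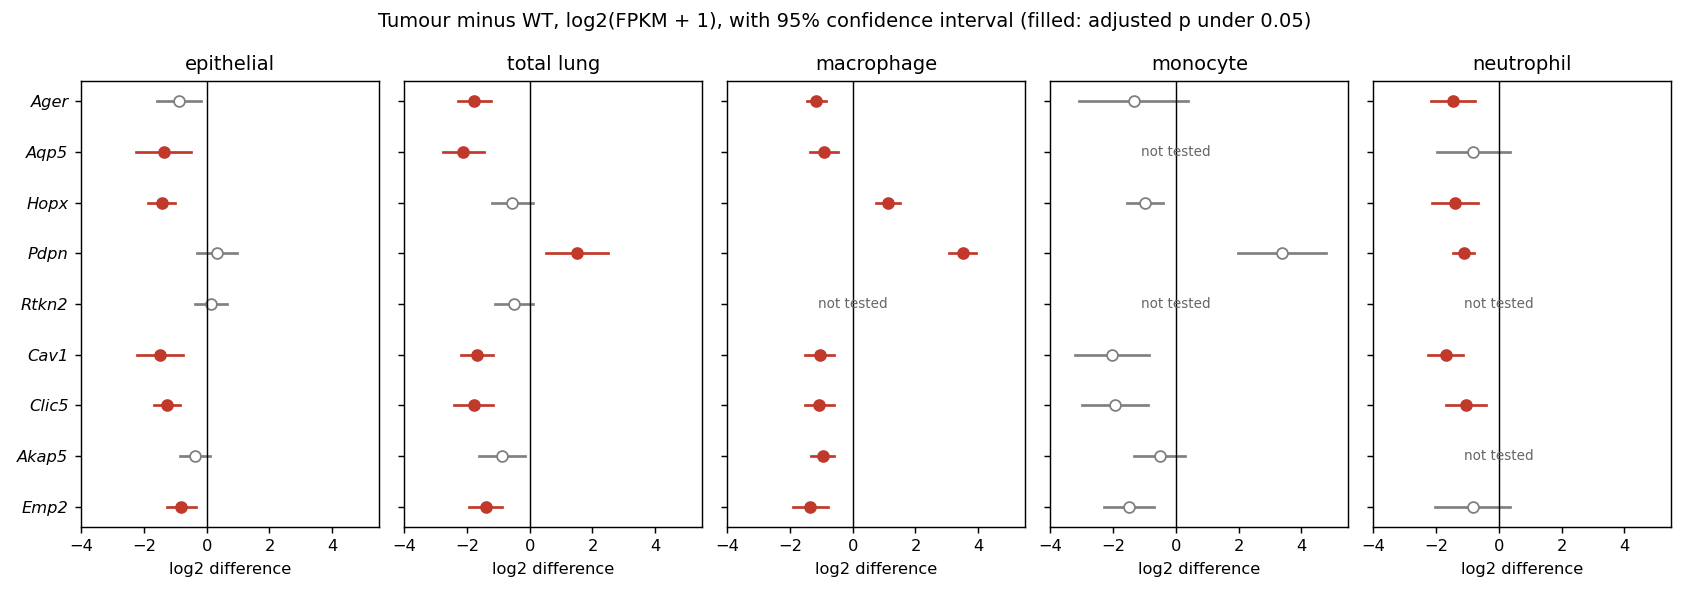
Log2 difference between tumour and WT libraries of each AT1 gene in each cell preparation, with bars for the 95% confidence interval, filled red points for an adjusted p under 0.05, and genes under the filter written as not tested. Most points lie left of 0; Pdpn lies right of it at 3.51 in macrophages and left at -1.11 in neutrophils.

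In macrophages Pdpn and Hopx rose and the other members tested fell. Of 10119 genes 20.3% were higher and 17.7% lower, and of the 8 members tested 2 were higher and 6 lower. Pdpn was 52.8, 65.5 and 81.5 FPKM in the tumour and 4.99 and 4.72 FPKM in the WT libraries (log2 3.51, SE 0.18, adjusted p = 2.65e-05), about 11.4 times on this scale. Hopx was 29.1, 26.1 and 27.6 FPKM in tumour and 14.6 and 10.1 FPKM in WT macrophages (log2 1.12, SE 0.16, adjusted p = 0.00198). Both genes were higher in every tumour library than in either WT library, as were 32.4% of all genes. Ager fell from 18.1 and 14.9 FPKM in WT to 6.41, 7.22 and 6.76 FPKM (log2 -1.16, SE 0.13, adjusted p = 0.000731). Cav1 fell from 30.3 and 32.1 to 13.4, 19.2 and 11.8 FPKM (log2 -1.05, adjusted p = 0.0062), and Emp2 from 7.75 and 5.82 to 2.09, 2.78 and 1.32 FPKM (log2 -1.36, adjusted p = 0.00462). Aqp5, Clic5 and Akap5 were at 1.46 to 2.89 FPKM in WT and under 1 FPKM in all tumour macrophages, with log2 differences of -0.93, -1.07 and -0.96 (adjusted p = 0.00885, 0.00593 and 0.00332). They entered the test through WT libraries alone, so a fall was the direction open to them. Rtkn2, at most 0.372 FPKM, was not tested.

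The macrophage contrast sets CD11c+CD11b+ against CD11c+CD11b- cells, so tumour and gate cannot be told apart. Epcam itself was 45.3 ± 3.27 FPKM in WT and 4.50 ± 2.22 FPKM in tumour macrophages. The keratin gene Krt8 went the other way, at 1.18 FPKM in WT and 5.53 FPKM in tumour, as did Krt18 (0.807 and 4.23 FPKM). The surfactant gene Sftpc was 649.0 and 485.6 FPKM in WT and 178.8, 126.7 and 42.8 FPKM in tumour macrophages. AT2 markers were lower for 6 of 9 genes and higher for 2, and neutrophil markers were higher for 4 of 6. Endothelial markers were lower for 11 of 12 genes tested. Car4 was among the 12, at 293.2 and 357.1 FPKM in WT and 8.78 to 17.6 FPKM in tumour macrophages. Without Car4 the endothelial sums were 101.5 to 113.9 FPKM in WT and 34.0 to 40.2 FPKM in tumour macrophages. The part of these genes in the fall of Ager, Cav1 and Emp2 was not tested. Among the other AT1 genes 3 of 16 tested were higher and 9 lower. The share higher, 18.8%, was near the 20.3% of all genes, and the share lower was 56.2% against 17.7%. Vegfa, the endothelial growth factor, rose from 7.99 ± 0.348 to 167.9 ± 11.1 FPKM, and Flrt3 and Agrn rose too. Krt19 fell from 382.3 ± 27.3 to 9.88 ± 1.48 FPKM, ahead of Wwtr1 and Cav2. With either WT library left out 4 members were called: Cav1 lost its call without WT replicate 2 (adjusted p = 0.0531), Emp2 without WT replicate 1 (adjusted p = 0.0529), and Aqp5, Clic5 and Akap5 then left the test. In a fit of all 10 groups Ager (adjusted p = 0.0515) and Aqp5 (adjusted p = 0.162) lost theirs.

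Monocytes showed Pdpn high in tumour and Hopx, Cav1, Clic5 and Emp2 high in WT lung, but limma called 0 of the 7 members tested and 0% of 10366 genes. The lowest adjusted p of any gene was 0.0911. At an unadjusted p under 0.05 there were 5 members, of which 1 was higher in tumour, and 15% of all genes (1559). Pdpn was 38.6 and 10.5 FPKM in tumour and 1.15 and 0.969 FPKM in WT monocytes (log2 3.38, SE 0.57, adjusted p = 0.178). Cav1 was 22.8 and 62.2 FPKM in tumour and 187.4 and 133.1 FPKM in WT (log2 -2.03, adjusted p = 0.187), and Clic5 2.51 and 7.35 against 22.4 and 17.4 FPKM (log2 -1.94, adjusted p = 0.185). These genes did not overlap between arms, which held for 23.6% of genes in the higher and 24.6% in the lower direction. Hopx was 37.5 and 43.5 FPKM in tumour and 97.3 and 67.5 FPKM in WT (log2 -0.99, adjusted p = 0.187). Emp2 was 5.44 and 7.57 against 26.4 and 14.8 FPKM (log2 -1.49, adjusted p = 0.182). Ager was 5.71 and 8.86 FPKM in tumour and 43.4 and 8.64 FPKM in WT monocytes, which overlapped, and WT replicate 3, the high library, also held 1780.5 FPKM of Sftpc against 229.4 FPKM in WT replicate 4. Akap5 (log2 -0.51, adjusted p = 0.533) entered through WT alone, and Aqp5 and Rtkn2 were under the filter.

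Endothelial markers without Car4 summed in the monocyte sort to 750.2 and 1159.5 FPKM in WT and to 129.5 and 346.5 FPKM in tumour libraries. Again there was no call (0 of 13 genes, Car4 included). Cav1, Clic5, Hopx, Emp2 and Ager were each higher in the library with the higher sum in both arms. Pdpn and Akap5 were so in WT alone. The part of the endothelial markers in the monocyte values was not tested. In a fit of all 10 groups, whose shared spread gives the test more degrees of freedom, Pdpn, Cav1 and Clic5 passed (adjusted p = 0.000189, 0.00281 and 0.00221). They also passed without tumour replicate 5 (adjusted p = 0.0197, 0.0222 and 0.0247), where the lone tumour library is assumed to vary like WT. The library left out there was the tumour one nearer to WT for all 3 genes. Without tumour replicate 4, WT replicate 3 or WT replicate 4, 0 members were called (Pdpn adjusted p = 0.3355, 0.4149 and 0.3195). None of the 22 other AT1 genes tested was called.

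In neutrophils of tumour lung Ager, Hopx, Pdpn, Cav1 and Clic5 fell. This was 5 of the 7 members tested lower and 0 higher, where 25.8% of 9349 genes were lower and 33.3% higher. Pdpn, the gene that rose in macrophages, was 4.0, 3.20 and 4.22 FPKM in tumour and 7.84, 10.7 and 9.72 FPKM in WT neutrophils (log2 -1.11, SE 0.15, adjusted p = 0.000328). Cav1 was 3.96, 2.59 and 6.14 FPKM in tumour and 16.9, 12.1 and 17.5 FPKM in WT (log2 -1.70, SE 0.24, adjusted p = 0.000508). Hopx was 6.81, 4.85 and 11.4 FPKM against 14.7, 18.1 and 32.6 FPKM (log2 -1.39, adjusted p = 0.00557). Each of these was lower in every tumour library than in any WT library, as were 28% of all genes. Ager was 9.21, 7.91 and 10.9 FPKM in tumour and 25.9, 16.7 and 47.4 FPKM in WT (log2 -1.47, SE 0.31, adjusted p = 0.00348). Clic5 was 0.651, 0.575 and 1.73 FPKM against 2.74, 1.91 and 4.69 FPKM (log2 -1.04, adjusted p = 0.0112). Aqp5, at 0.716, 0.645 and 0.841 FPKM in tumour and 3.24, 0.108 and 4.94 FPKM in WT, did not pass (log2 -0.81, adjusted p = 0.201), nor did Emp2 (log2 -0.84, adjusted p = 0.198). Both passed without WT replicate 6 (adjusted p = 0.00058 and 0.0384), the library in which Aqp5 was 0.108 FPKM and Emp2 2.47 FPKM. Aqp5 entered the neutrophil test through WT libraries alone, so a fall was the direction open to it. Leaving out its lowest WT library favours that direction further.

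The median gene of the neutrophil comparison was shifted by a log2 of 0.11, which quantile normalization brought to 0.05, and the 5 calls held under each scaling run. Sftpc was 698.8, 440.5 and 1763.8 FPKM in WT and 36.5, 9.63 and 14.7 FPKM in tumour neutrophils, and WT replicate 7, its highest library, was also the highest WT neutrophil library for every member except Pdpn. Endothelial markers were lower for 11 of 12 genes and higher for 1. The 1 higher was Car4, at 1.36 to 4.48 FPKM in WT and 28.1 to 44.2 FPKM in tumour neutrophils. Sums without Car4 were 90.9 to 120.6 FPKM in WT and 19.4 to 32.5 FPKM in tumour neutrophils. AT2 markers were lower for 9 of 9 genes and B cell markers for 4 of 4. Krt8 went the other way, at 3.6 FPKM in WT and 12.5 FPKM in tumour neutrophils, as did Krt18 (2.84 and 18.6 FPKM). The part of these was not tested. Of the 19 other AT1 genes tested 9 were lower and 3 higher. The share lower was 47.4% against 25.8% of all genes, and the share higher 15.8% against 33.3%. Timp3, Scnn1a and Agrn led those lower (log2 -2.75, -2.26 and -1.27), and those higher included Krt19 (log2 2.53) and the laminin chain Lamb3 (log2 0.50).

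Pdpn and Hopx, whose tumour effects pointed in opposite directions, were compared between preparations by interaction terms that were chosen after these directions were seen. Pdpn differed between macrophages and neutrophils by a log2 of 4.62 (SE 0.24, adjusted p = 9.15e-08), where 52.7% of genes differed. It differed between monocytes and neutrophils by 4.49 (adjusted p = 0.00151, 18.8% of genes) and between total lung and neutrophils by 2.62 (adjusted p = 0.00148, 41.9% of genes). Hopx differed between macrophages and neutrophils by 2.51 (adjusted p = 0.00063), between macrophages and monocytes by 2.11 (adjusted p = 0.00185, 15.3% of genes) and between macrophages and epithelium by 2.56 (adjusted p = 8.61e-05, 31.3% of genes). All 6 kept their call under the 106 alternatives run, which reuse the same libraries and so add no independent support. The monocyte effects taken alone were not called by limma (adjusted p = 0.178 for Pdpn and 0.187 for Hopx). The macrophage terms also carry the difference in gate.

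Across the 10 group means, on the log2 scale, the members ran with Ager to varied degrees. Pearson's r with Ager was 0.992 for Aqp5, 0.983 for Rtkn2, 0.962 for Emp2 and 0.932 for Akap5. It was 0.778 for Clic5, 0.441 for Hopx, 0.386 for Cav1 and -0.286 for Pdpn. Hopx and Cav1 had their highest r among the members with each other (0.865). Clic5 had its highest r with Emp2 (0.904), followed by Cav1 (0.806) and Hopx (0.792). These are descriptions over 10 groups that share sorts and lungs. With the summed endothelial markers r was 0.932 for Cav1, 0.797 for Hopx and 0.721 for Clic5, but 0.226 for Ager and 0.239 for Aqp5. With Nkx2-1 it was 0.996 for Aqp5, 0.992 for Ager, 0.979 for Rtkn2, 0.775 for Clic5 and 0.373 for Cav1.

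**Figure D4:**
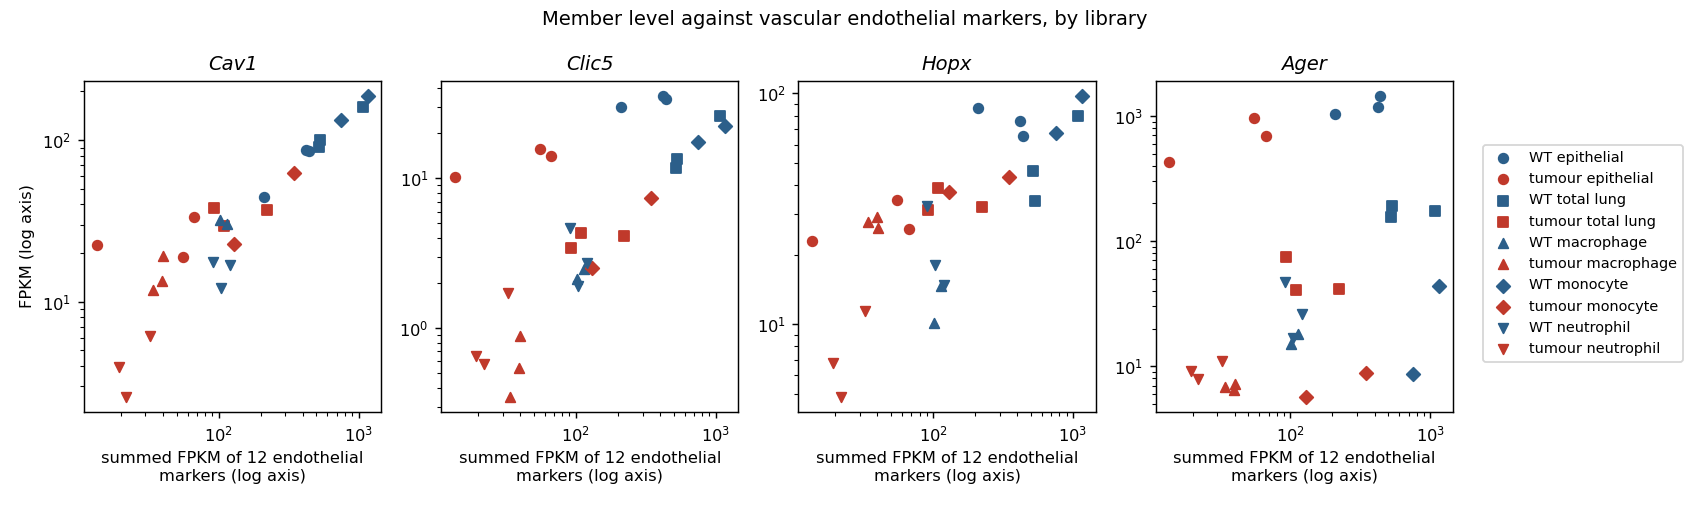
FPKM of Cav1, Clic5, Hopx and Ager in each library against the summed FPKM of 12 vascular endothelial markers in the same library, both on log axes, with cell preparations as symbols and WT in blue, tumour in red. Cav1 climbs with the endothelial sum across preparations (r = 0.932 over group means), whereas Ager is highest in the epithelial sort, with WT monocytes at sums of 750.2 and 1159.5 FPKM holding at most 43.4 FPKM.

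Each member had its own nearest genes over these 10 means, out of the genes whose highest group mean was at least 5 FPKM. Ager ran closest to Cldn3 (r = 0.997), Hc (r = 0.996) and Cldn18 (r = 0.996), of which Cldn3 and Cldn18 are tight junction claudins, and Aqp5 to S100g, Myh14 (both r = 0.998) and Cldn3 (r = 0.997). Rtkn2 ran closest to Tspan11 (r = 0.989), Pard6b (r = 0.986) and Cldn18 (r = 0.985), and Emp2 to the basal adhesion gene Bcam (r = 0.994), Pvrl3 (r = 0.992) and Pcmtd2 (r = 0.989). Akap5 was nearest to Tmem30b (r = 0.979), Fgf11 and Slc1a3 (r = 0.971). Clic5 was nearest to Afap1l1 (r = 0.996), Gpr116 (r = 0.994) and Ptprg (r = 0.991), and Cav1 to Hey1 (r = 0.96), a Notch target of endothelium, Elf2 (r = 0.959) and Dock6 (r = 0.955). Hopx had B4galt4 (r = 0.965), Anxa6 (r = 0.957) and Dnajb5 (r = 0.956). Pdpn stood with the macrophage fusion gene Dcstamp (r = 0.892), the macrophage elastase Mmp12 (r = 0.884) and Tpcn2 (r = 0.877).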

How the data were processed

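RNA of sorted or total lung cells was sequenced in 27 libraries (TruSeq RNA v2, per the labels' protocols). Per the submitters' processing notes, the authors used CASAVA 1.8.2, TopHat2, Cufflinks and Cuffdiff on mm10 (GRCm38), and the deposited values are FPKM per gene symbol. Strand use in counting is not given in the sources used here. Fragment counts were not analysed here, so depth is known only as a ratio between libraries, and no counting interval is given. All 27 columns were matched to samples by title, and groups follow the labelled cell type and lung.

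FPKM were used as deposited, put on the log2 scale after adding 1. A gene entered a test when 2 or more of its compared libraries reached 1 FPKM. The test was limma 3.58.1 (R 4.3.3), run on the compared groups alone and moderated by empirical Bayes along a trend in expression. P-values were adjusted over all genes tested (Benjamini-Hochberg, threshold 0.05), and the fit was tested on simulated data. The text names all 9 members, up to 3 genes called in each direction of the list of other AT1 genes (41 listed, 39 found, mean of at least 5 FPKM), and the 3 genes of highest correlation with each member. Members and lists were chosen with earlier results of these data known. Alternatives tried were another pseudocount (0.1 or 5), a stricter filter (5 FPKM) or none, scaling by quantiles or by the upper quartile, fitting the 10 groups together, a replicate block, and dropping each library. Epcam, Krt8, Krt18, Msln, Car4, Sftpb and Sftpc were singled out after their values were seen. The interactions of Pdpn and Hopx were added after the data were seen. Gene positions came from GENCODE M21, promoters from RefSeq. Figures were drawn with matplotlib 3.10.9.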

Additional observations from a re-analysis of the deposited data

Results flagged for a closer look

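The tumour effect on Pdpn and on Hopx differed between preparations by interaction terms in limma, each chosen after opposite directions had been seen, and adjusted over all genes tested. For Pdpn the difference in log2 was 4.62 between macrophages and neutrophils (3.51 against -1.11, 95% interval 4.09 to 5.15), 4.49 between monocytes and neutrophils (3.38 against -1.11, 3.26 to 5.73) and 2.62 between total lung and neutrophils (1.51 against -1.11, 1.54 to 3.69). For Hopx it was 2.51 between macrophages and neutrophils (1.12 against -1.39, 1.54 to 3.47), 2.11 between macrophages and monocytes (1.12 against -0.99, 1.46 to 2.75) and 2.56 between macrophages and epithelial cells (1.12 against -1.44, 1.97 to 3.14). The macrophage terms share their libraries, as do the neutrophil terms, so the 6 are not independent. The macrophage gate differs between tumour and WT lung in CD11b, and tumour and gate cannot be told apart in those 4 terms. The monocyte effects of Pdpn and Hopx were not called on their own.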

How the results depend on the processing

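Of the counts of members called, 96 stayed within 1.5 times of the reported value, 11 dropped and 4 rose. In macrophages 8 members became 5 with a filter of 5 FPKM, since fewer were tested, and 4 to 8 with a library left out. In monocytes 0 became 3 in a fit of all 10 groups, and 0 to 3 with a library left out. In epithelium 5 became 3 without a filter and 2 to 6 with a library left out. Leaving out libraries gave 3 to 7 members, where 6 were reported, for WT epithelium against total lung, and 0 to 1 for the interaction. Of single members 845 results kept their side of the threshold and direction, 43 lost the call, 20 gained it and 4 reversed: Rtkn2 in epithelium with quantile normalization (-0.0242), and Cav1 in the interaction without tumour epithelial replicate 9 (-0.02), WT epithelial replicate 9 (-0.12) or WT total lung replicate 13 (-0.04), with 0.37 the highest value over libraries left out. The cause of these changes was not tested.

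Replicate numbers are running numbers and were not taken to pair libraries in the main tests. Same-numbered libraries correlated at -0.17 to 0.0816 after removing group means. With at most 2 pairs per comparison, and groups of 2 or 3 libraries, this cannot tell whether they share more than a number. With the replicate block 0 members were called in epithelium, 8 in macrophages, 5 in neutrophils and 6 in total lung; monocytes share 1 number and were not fitted. Groups of 2 or 3 libraries and unknown fragment counts limit all values, most of all those under 1 FPKM.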
